A study of Mus musculus with 21 samples.

Results

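Wnt ligand genes encode secreted, lipid-modified signalling proteins that act over short distances between neighbouring cells. The genes described here are Wnt3, Wnt3a, Wnt4, Wnt5a, Wnt5b, Wnt7a, Wnt7b, Wnt10a, Wnt10b and Wnt16. They are 10 of the 19 Wnt ligand genes in the deposited tables of RNA sequencing from mouse epidermis, which hold 43943 to 43945 loci each. They were chosen by symbol from a list made with the expression values of these populations already known. Their levels and the counts below are therefore a description, and no p-value was computed over the list.

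The study sequenced polyadenylated RNA from 21 libraries in 7 groups of 3, and asked which cells grow in cultures of hair follicle stem cells (HFSCs) and what drugs do to them. In the 3-population table, the columns are named HFSC, CD34a6 and bulk. The libraries behind them are labelled, in no order matched to the columns, as sorted HFSCs, cultured HFSCs and total epidermal cells. All are keratinocytes of wild type mice. The labels do not state which of the HFSC and CD34a6 columns holds the sorted and which the cultured cells. The fraction table compares the CD34+ a6+ with the CD34neg a6+ cells of 3C cultures, which are HFSC cultures grown from total epidermal cells for 10 to 14 days. The inhibitor table compares such cultures after 48 h with dorsomorphin, an inhibitor of type I BMP receptors that also blocks the kinase AMPK, with cultures after 48 h with cyclopamine, which blocks Hedgehog signalling at Smoothened. No comparison of either inhibitor with an untreated culture is made here. CD34 and alpha-6 integrin (a6) are surface proteins by which stem cells of the hair follicle bulge are sorted. Strain, age and sex are not stated in the labels used here, nor whether animals were pooled or came from separate litters.

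The bulk column was taken to be total epidermal cells. Whether HFSC or CD34a6 is the freshly sorted population cannot be read from the labels, so both keep their column names. A level in the column named HFSC is therefore not to be taken as that of freshly sorted cells. Cd34 stood at 8.70 FPKM in HFSC, at 327 FPKM in CD34a6 and at 10.6 FPKM in bulk (log2 -0.28 for HFSC against bulk, q = 0.325, not called in the authors' deposited table). Sorting goes by the surface protein, which was not measured here. Krt15, a bulge and basal keratin, stood at 37.9 FPKM in HFSC, against 9923 FPKM in CD34a6 and 4791 FPKM in bulk. The 7 genes listed as bulge markers were Cd34, Lhx2, Sox9, Tcf3, Tbx1, Nfatc1 and Col17a1. Tcf3 is the gene of that symbol and not Tcf7l1, which is counted below under beta-catenin transcription. All 7 were higher in CD34a6 than in bulk, as were 22.0% of tested loci. In HFSC against CD34a6, 6 were lower and none higher, where 29.0% of tested loci were lower. In HFSC against bulk, 2 were higher and 2 lower, where 19.0% of tested loci were higher and 24.7% lower. By these genes, CD34a6 was the more bulge-like column. All 6 keratinocyte markers reached 1 FPKM in each of the 7 populations. Each population has 1 FPKM value (fragments scaled to transcript length and library size) estimated by the authors over its libraries, so no spread between libraries is shown. "Higher" and "lower" below mean an adjusted p (q) under 0.05 in the authors' deposited table, and tables normalised separately are compared only within themselves.

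A Wnt protein is lipidated in the endoplasmic reticulum by Porcupine and carried to the surface by Wntless. It binds Frizzled receptors, and with an Lrp co-receptor it stabilises beta-catenin, which activates genes together with Tcf and Lef factors, while other Wnt proteins act through Ror receptors without beta-catenin. In skin, Wnt signalling through beta-catenin is required for hair follicles to form and for resting follicles to enter growth. Epidermal and follicular keratinocytes make several of these ligands themselves.

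The promoters of Wnt3 and Wnt16 are shown because both genes were lowest in HFSC and highest in bulk, and those of Wnt5b and Wnt7a because these genes stood apart in CD34a6, one by a high and the other by a near-zero level. The windows are RefSeq sequence of build GRCm38.p6, from 250 bases before to 50 bases after a transcription start, written 5′ to 3′ on the gene's strand. They lie at chr11:103773925-103774224 on the plus strand for Wnt3, at chr6:22287977-22288276 on the plus strand for Wnt16, at chr6:119544298-119544597 on the minus strand for Wnt5b and at chr6:91411304-91411603 on the minus strand for Wnt7a. Wnt5b has 3 windows in the RefSeq table, and the one nearest the start of its deposited locus is shown. Capitals mark matches, on either strand, to the letters CCAAT (the CCAAT box), TGANTCA (the AP-1 site) or CTTTGA (the core bound by Tcf and Lef factors). These motifs were chosen after the sequences had been looked at.
Wnt3: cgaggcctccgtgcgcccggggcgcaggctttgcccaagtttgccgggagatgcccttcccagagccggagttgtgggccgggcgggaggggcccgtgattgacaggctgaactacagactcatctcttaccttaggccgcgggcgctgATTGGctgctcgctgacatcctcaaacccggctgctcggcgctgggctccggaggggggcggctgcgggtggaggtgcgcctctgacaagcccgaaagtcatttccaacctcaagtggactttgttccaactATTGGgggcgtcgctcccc
Wnt16: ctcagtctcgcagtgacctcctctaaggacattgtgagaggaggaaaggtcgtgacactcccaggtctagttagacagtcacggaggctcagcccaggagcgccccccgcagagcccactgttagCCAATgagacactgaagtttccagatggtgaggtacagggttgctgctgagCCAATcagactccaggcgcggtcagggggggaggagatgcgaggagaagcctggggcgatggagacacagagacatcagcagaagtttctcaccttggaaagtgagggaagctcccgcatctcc
Wnt5b: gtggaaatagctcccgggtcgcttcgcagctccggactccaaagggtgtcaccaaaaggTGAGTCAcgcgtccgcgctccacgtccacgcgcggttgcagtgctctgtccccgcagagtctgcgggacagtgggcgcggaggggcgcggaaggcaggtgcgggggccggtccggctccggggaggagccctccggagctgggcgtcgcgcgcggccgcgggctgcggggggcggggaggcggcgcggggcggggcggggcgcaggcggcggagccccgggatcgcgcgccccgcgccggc
Wnt7a: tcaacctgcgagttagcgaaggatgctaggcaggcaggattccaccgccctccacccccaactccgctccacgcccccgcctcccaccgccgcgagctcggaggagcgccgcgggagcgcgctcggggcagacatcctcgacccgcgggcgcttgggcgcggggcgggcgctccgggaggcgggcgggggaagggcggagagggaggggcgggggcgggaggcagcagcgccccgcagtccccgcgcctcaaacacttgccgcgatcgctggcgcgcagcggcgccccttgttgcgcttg

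Of the 10 genes, 7 had a window in the RefSeq table: Wnt3, Wnt3a, Wnt4, Wnt5b, Wnt7a, Wnt10b and Wnt16. CCAAT occurred at 2 places in the Wnt3 window and at 2 in the Wnt16 window, and at none in the other 5 windows. It occurs in 37.4% of the 32851 mouse windows of the same length. TGANTCA occurred at 1 place in the Wnt5b window, at none in the other 6, and in 7.81% of all windows. CTTTGA occurred in none of the 7 and in 16.0% of all windows, and TATAAA, the TATA box, in none of the 7 and in 13.6% of all windows. The windows were rich in G and C, from 58.0% in Wnt16 to 86.3% in Wnt3a, against a median of 52.7% over all windows. They held 10 CpG dinucleotides in Wnt16 and up to 51 in Wnt4, against a median of 7. GGGCGG, the GC box, occurred 9 times in Wnt3a and 8 times in Wnt4, and did not occur in Wnt10b or Wnt16, while 35.7% of all windows hold it. A match is a stretch of letters and does not show binding.

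Apart from Wnt4 and Wnt16, the genes form paralogue pairs. Over the coding sequence of the GENCODE annotation, Wnt3 and Wnt3a were 77.9% identical, Wnt5a and Wnt5b 77.8%, Wnt7a and Wnt7b 77.8%, and Wnt10a and Wnt10b 71.2%. Identity over all 45 pairs of the 10 genes ranged from 59.3% to 77.9%. No pair shared a stretch of 50 bases in its transcripts, so a read of that length would match no more than 1 of them exactly. On GRCm38, Wnt3 lies at chr11:103774150-103817957 and Wnt3a at chr11:59248033-59290752. Wnt4 lies at chr4:137277489-137299726, Wnt5a at chr14:28504750-28527447 and Wnt5b at chr6:119432531-119544347. Wnt7a lies at chr6:91363981-91411363, Wnt7b at chr15:85535439-85593708, Wnt10a at chr1:74791516-74804179, Wnt10b at chr15:98771753-98778150 and Wnt16 at chr6:22288227-22298522. Within the Wnt5b locus lies the coding gene Fbxl14, on the other strand, and antisense genes lie within the loci of Wnt5a and Wnt7b. Strand use in the authors' counting is not given in the sources used here, so reads of such overlapping genes may not be separated.

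The ligand with the highest level differed between the populations. In HFSC, Wnt10a made up 52.7% of the summed FPKM of the 19 Wnt genes, Wnt4 23.0% and Wnt5a 6.2%. In CD34a6, Wnt7b made up 33.3%, Wnt5b 18.4%, Wnt4 17.6% and Wnt10a 15.8%. In bulk, Wnt7b made up 36.1%, Wnt3 25.3%, Wnt4 12.5% and Wnt10a 11.0%. Wnt4 and Wnt10a were thus among the 4 leading ligands in each of the 3 populations, whereas Wnt5b ranked second in CD34a6 and Wnt3 second in bulk. The summed FPKM was 143.9 in HFSC, 76.8 in CD34a6 and 217.7 in bulk. The 10 genes held between 91.8% and 96.1% of the sum in the 7 populations.

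**Figure D1:**
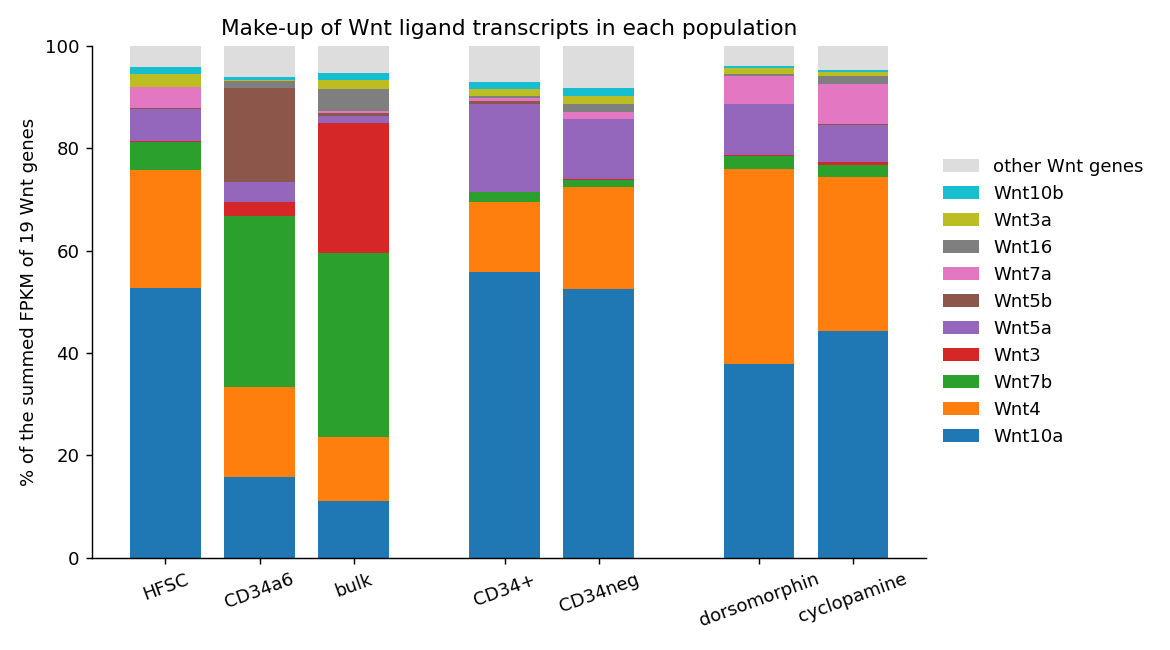
Stacked bars give each Wnt gene's share, in % of the summed FPKM of 19 Wnt genes, in the 7 populations, with 1 value per population and no error bars. Wnt10a holds 52.7% in HFSC, while Wnt7b leads in CD34a6 (33.3%) and bulk (36.1%), and Wnt10a leads in CD34+ (55.8%), CD34neg (52.5%) and cyclopamine (44.3%) and is close to Wnt4 with dorsomorphin (37.8% and 38.1%).

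In CD34a6 against bulk, 1 of the 10 genes was higher (Wnt5b), 8 were lower and Wnt5a was not called. Over the 14441 loci tested, 22.0% were higher and 24.3% lower. The median difference of the 10 genes in log2(FPKM + 1) was -1.21, against 0.0 over all loci tested. In HFSC against bulk, 3 of 10 were higher (Wnt5a, Wnt7a and Wnt10a), 3 were lower (Wnt3, Wnt7b and Wnt16) and 4 were not called, where 19.0% of 14035 loci were higher and 24.7% lower. The median of the 10 was -0.24, against -0.11 over all loci tested. In HFSC against CD34a6, 6 were higher (Wnt3a, Wnt4, Wnt5a, Wnt7a, Wnt10a and Wnt10b) and 4 lower (Wnt3, Wnt5b, Wnt7b and Wnt16), where 25.2% of 13962 loci were higher and 29.0% lower. The median of the 10 was 1.17, against -0.07 over all loci tested. Both comparisons with bulk use the same bulk libraries, and the 3 pairs share all their populations, so the comparisons are not independent of each other. In these bulk RNA values, fewer cells of a type and less RNA per cell cannot be told apart.

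**Figure D2:**
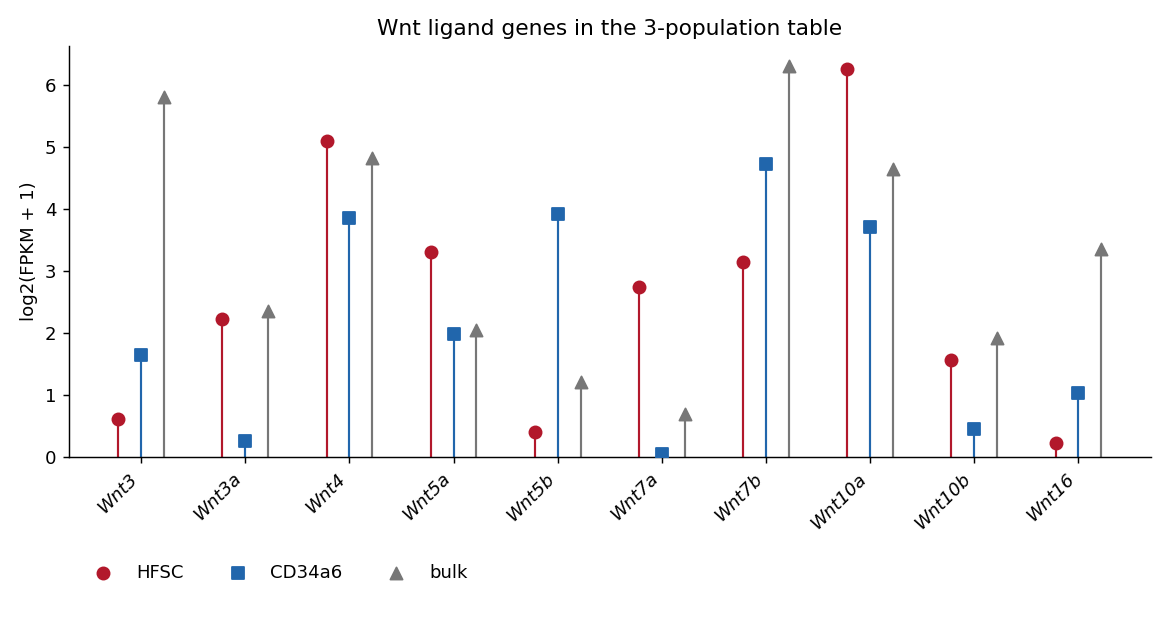
Points give log2(FPKM + 1) of each gene in HFSC (circles), CD34a6 (squares) and bulk (triangles), 1 value per population, so there are no error bars. Wnt3, Wnt7b and Wnt16 are lowest in HFSC and highest in bulk, Wnt5b is highest in CD34a6, and Wnt5a, Wnt7a and Wnt10a are highest in HFSC.

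Within 3 of the 4 paralogue pairs, the members had opposite directions between HFSC and CD34a6. Wnt3, which in mice is needed for gastrulation and is made in the epithelium of growing hair, stood at 0.525 FPKM in HFSC, 2.12 FPKM in CD34a6 and 55.1 FPKM in bulk. It was 26.0-fold lower in CD34a6 than in bulk and 105-fold lower in HFSC than in bulk (q = 0.000212 for both in the authors' deposited table). It was also 4.04-fold lower in HFSC than in CD34a6 (q = 0.000212 in the authors' deposited table). Wnt3a, which acts through beta-catenin and patterns the trunk of the mouse embryo, stood at 3.70 FPKM in HFSC, 0.198 FPKM in CD34a6 and 4.12 FPKM in bulk. HFSC and bulk were close and CD34a6 was far below both. In the authors' deposited table it was 20.8-fold lower in CD34a6 than in bulk (q = 0.000212), 18.7-fold higher in HFSC than in CD34a6 (q = 0.000212) and not called in HFSC against bulk (log2 -0.15, q = 0.563). Wnt3 therefore made up 12.4% of the summed FPKM of the pair in HFSC, 91.5% in CD34a6 and 93.0% in bulk.

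Wnt7a, which in mice sets the dorsal side of the limb from the overlying ectoderm, stood at 5.69 FPKM in HFSC, 0.0298 FPKM in CD34a6 and 0.628 FPKM in bulk. It was 9.07-fold higher in HFSC than in bulk (q = 0.000212 in the authors' deposited table). The CD34a6 value is near 0, so the size of its folds is uncertain, and the authors' deposited table gives q = 0.0170 against bulk (lower) and q = 0.00110 for HFSC against CD34a6 (higher). Its paralogue Wnt7b, made in mouse bulge and growing follicles, stood at 7.83 FPKM in HFSC, 25.6 FPKM in CD34a6 and 78.5 FPKM in bulk. Wnt7b ran the other way from Wnt7a in HFSC against bulk and in HFSC against CD34a6, while both were lower in CD34a6 than in bulk. In the authors' deposited table Wnt7b was 3.07-fold lower in CD34a6 than in bulk, 10.0-fold lower in HFSC than in bulk and 3.27-fold lower in HFSC than in CD34a6 (q = 0.000212 for each). The deposited Wnt7b locus reaches beyond the annotated end of the gene at its 5′ side. Wnt7a made up 42.1% of the summed FPKM of the pair in HFSC, 0.116% in CD34a6 and 0.793% in bulk.

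Wnt5a, a ligand that signals mainly without beta-catenin through Ror receptors, stood at 8.92 FPKM in HFSC, 2.96 FPKM in CD34a6 and 3.16 FPKM in bulk. In the authors' deposited table it was 2.82-fold higher in HFSC than in bulk (q = 0.000586) and 3.01-fold higher in HFSC than in CD34a6 (q = 0.000212), while CD34a6 against bulk was not called (log2 -0.09, q = 0.826). Wnt5b, its closest relative, stood at 0.321 FPKM in HFSC, 14.1 FPKM in CD34a6 and 1.32 FPKM in bulk. Only in HFSC against CD34a6 were both genes called, and there in opposite directions. The authors' deposited table gives Wnt5b as 10.7-fold higher in CD34a6 than in bulk (q = 0.0127) and 44.0-fold lower in HFSC than in CD34a6 (q = 0.000212). HFSC against bulk was not called for Wnt5b (log2 -2.04, q = 0.111 in the authors' deposited table). Fbxl14, which is listed at the same deposited locus, stood at 13.5 FPKM in HFSC, 12.5 FPKM in CD34a6 and 5.66 FPKM in bulk. Like Wnt5b, it was higher in CD34a6 than in bulk (log2 1.15, q = 0.0127 in the authors' deposited table). Unlike Wnt5b, it was higher in HFSC than in bulk (log2 1.25, q = 0.00746) and not called in HFSC against CD34a6 (log2 0.10, q = 0.598) in the authors' deposited table.

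Wnt10a, mutated in human ectodermal dysplasia with sparse hair, stood at 75.8 FPKM in HFSC, 12.1 FPKM in CD34a6 and 24.0 FPKM in bulk. In the authors' deposited table it was 3.16-fold higher in HFSC than in bulk (q = 0.000212), 6.26-fold higher in HFSC than in CD34a6 (q = 0.000212) and 1.98-fold lower in CD34a6 than in bulk (q = 0.0147). Wnt10b, an early marker of hair follicle placodes, was far less abundant, with 1.95 FPKM in HFSC, 0.372 FPKM in CD34a6 and 2.78 FPKM in bulk. The authors' deposited table gives it as 7.48-fold lower in CD34a6 than in bulk and 5.24-fold higher in HFSC than in CD34a6 (q = 0.000212 for both), with HFSC against bulk not called (log2 -0.51, q = 0.164). This pair moved in the same direction between HFSC and CD34a6, and Wnt10a held at least 89.6% of its summed FPKM in each of the 7 populations.

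Wnt4, needed for mouse kidney tubules and the female reproductive tract, stood at 33.1 FPKM in HFSC, 13.5 FPKM in CD34a6 and 27.1 FPKM in bulk. The authors' deposited table gives it as 2.00-fold lower in CD34a6 than in bulk (q = 0.00513) and 2.45-fold higher in HFSC than in CD34a6 (q = 0.000212), with HFSC against bulk not called (log2 0.29, q = 0.271). Wnt16, which in mice limits bone resorption, stood at 0.172 FPKM in HFSC, 1.05 FPKM in CD34a6 and 9.28 FPKM in bulk. It was 8.80-fold lower in CD34a6 than in bulk, 54.1-fold lower in HFSC than in bulk and 6.14-fold lower in HFSC than in CD34a6 (q = 0.000212 for each in the authors' deposited table). Wnt16 thus shared with Wnt3 and Wnt7b the order HFSC, CD34a6, bulk from low to high, with each step called.

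Markers of other cells also differed between these populations. Summed over 4 suprabasal genes (Krt1, Krt10, Lor and Ivl), the level was 140 FPKM in HFSC, 1110 FPKM in CD34a6 and 34000 FPKM in bulk. Over the 5 immune genes it was 1.29 FPKM in HFSC, 5.29 FPKM in CD34a6 and 316 FPKM in bulk, with Ptprc listed at 0 in HFSC. Over the 7 fibroblast and dermal papilla genes it was 1.18 FPKM in HFSC, 38.6 FPKM in CD34a6 and 61.0 FPKM in bulk, with Col3a1 and Lum listed at 0 in HFSC and CD34a6. Over the 5 melanocyte genes it was 3.09 FPKM in HFSC, 22.3 FPKM in CD34a6 and 7.63 FPKM in bulk, and over the 4 endothelial and mural genes it stayed at or below 1.01 FPKM in all 3. The suprabasal, immune and fibroblast sums have the order of Wnt3, Wnt7b and Wnt16 over the populations, but not all of their genes do. Vim made up 56.6 FPKM of the fibroblast sum in bulk, while Col1a1, with 0.447 FPKM in HFSC, 22.4 FPKM in CD34a6 and 1.21 FPKM in bulk, and Col1a2, with 0.0223 FPKM in HFSC, 8.08 FPKM in CD34a6 and 0.825 FPKM in bulk, were higher in CD34a6 than in bulk (q = 0.000212 for both in the authors' deposited table). Of the suprabasal genes, Ivl stood at 30.1 FPKM in HFSC, 6.29 FPKM in CD34a6 and 122 FPKM in bulk, and was higher in HFSC than in CD34a6 (q = 0.000212 in the authors' deposited table). The part of these other cells in the Wnt results was not tested.

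Of the other 9 Wnt genes, Wnt6, Wnt9a and Wnt11 reached 1 FPKM in at least 1 population. Wnt6 stood at 1.60 FPKM in HFSC, 3.66 FPKM in CD34a6 and 8.20 FPKM in bulk, and the authors' deposited table calls each step (q = 0.00915 for CD34a6 against bulk and 0.000212 for both others). Wnt11 stood at 0.478 FPKM in HFSC, 0.550 FPKM in CD34a6 and 3.27 FPKM in bulk, and was lower in both than in bulk (q = 0.000212 in the authors' deposited table). Wnt9a went against these, with 3.74 FPKM in HFSC, 0.326 FPKM in CD34a6 and 0.11 FPKM in bulk, and was higher in HFSC than in either (q = 0.000212 for both in the authors' deposited table). Wnt1, Wnt2, Wnt2b, Wnt8a, Wnt8b and Wnt9b stayed at or below 0.605 FPKM in all 7 populations.

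**Figure D3:**
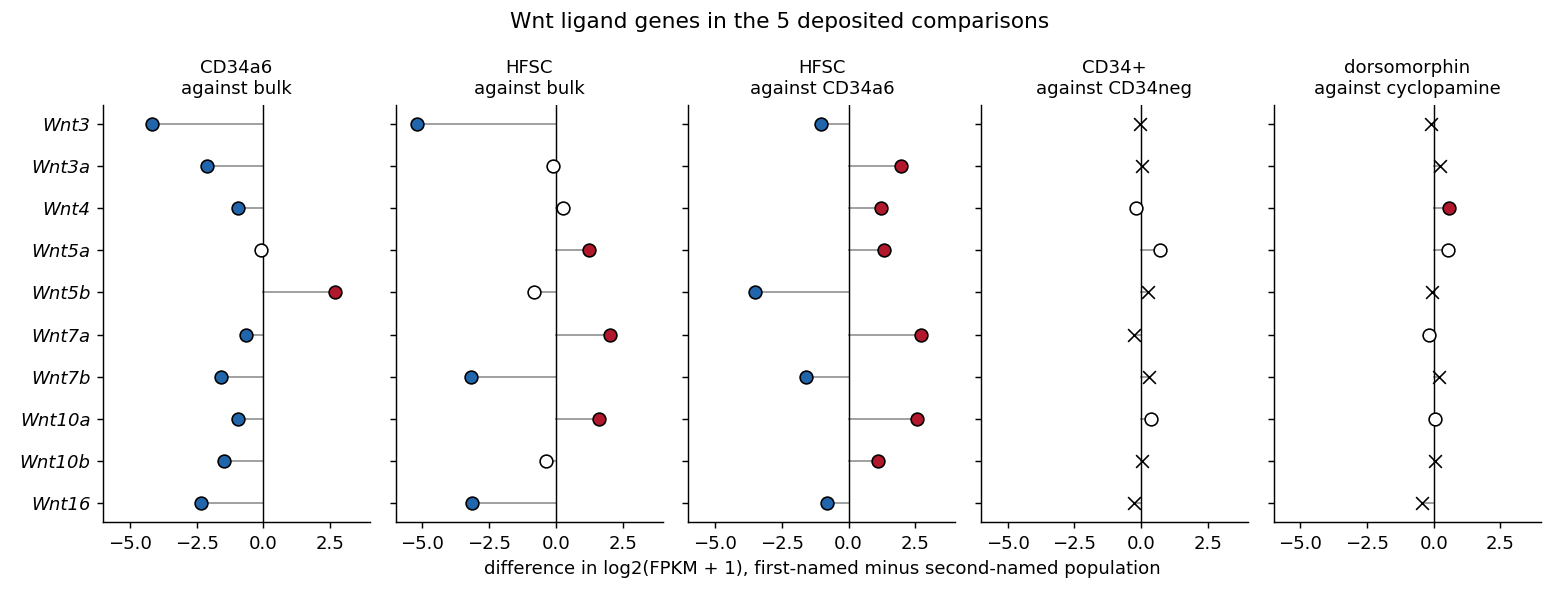
Points give the difference in log2(FPKM + 1), first-named minus second-named population, for the 10 genes in the 5 deposited comparisons. Red circles were called higher and blue circles lower (q under 0.05), open circles were tested and not called, and crosses were not tested by the authors. In HFSC against CD34a6, Wnt3a, Wnt5a and Wnt7a lie right of 0 and their paralogues Wnt3, Wnt5b and Wnt7b left of it.

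In the fractions of 3C cultures, the leading ligands were Wnt10a, Wnt4 and Wnt5a in both. Wnt10a stood at 18.6 FPKM in the CD34+ fraction and 14.0 FPKM in the CD34neg fraction, which is 55.8% of the summed Wnt FPKM in CD34+ and 52.5% in CD34neg. Wnt5a stood at 5.73 FPKM in CD34+ and 3.15 FPKM in CD34neg, and Wnt4 at 4.59 FPKM in CD34+ and 5.35 FPKM in CD34neg. The other 7 genes were not tested by the authors and lay at or below 0.634 FPKM, with Wnt5b at 0.195 FPKM in CD34+ and listed at 0 in CD34neg. None of the 3 tested genes was called, where 2.08% of 11370 loci were higher and 4.71% lower in the authors' deposited table. Wnt5a had a 1.82-fold higher value in CD34+ that was not called (unadjusted p = 0.0131, q = 0.107 in the authors' deposited table). Wnt10a (log2 0.41, q = 0.299) and Wnt4 (log2 -0.22, q = 0.580) were not called either in the authors' deposited table. The fractions differed in Cd34 itself, with 38.7 FPKM in CD34+ and 2.26 FPKM in CD34neg.

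In the inhibitor cultures, Wnt4 was the gene called. It stood at 17.2 FPKM with dorsomorphin and 11.3 FPKM with cyclopamine, 1.52-fold higher with dorsomorphin (log2 0.61, q = 0.00479 in the authors' deposited table). It was 1 of 4 genes tested, where 1.26% of 11505 loci were higher and 1.31% lower. Wnt10a was nearly level, with 17.1 FPKM with dorsomorphin and 16.6 FPKM with cyclopamine (log2 0.04, q = 0.962 in the authors' deposited table). Wnt5a stood at 4.44 FPKM with dorsomorphin and 2.73 FPKM with cyclopamine (log2 0.70, p = 0.0216, q = 0.266 in the authors' deposited table). Wnt7a stood at 2.50 FPKM with dorsomorphin and 2.96 FPKM with cyclopamine (log2 -0.25, q = 0.924 in the authors' deposited table). Wnt7b reached 1.18 FPKM with dorsomorphin and 0.884 FPKM with cyclopamine, and the other 5 genes lay at or below 0.571 FPKM, all untested. Wnt4 and Wnt10a together led in both cultures, Wnt4 with 38.1% and Wnt10a with 37.8% of the summed Wnt FPKM with dorsomorphin, and Wnt4 with 30.1% and Wnt10a with 44.3% with cyclopamine. Some marker genes also differed between these cultures. Krt1 stood at 12.4 FPKM with dorsomorphin and 6.52 FPKM with cyclopamine (higher), Ivl at 24.5 FPKM with dorsomorphin and 43.1 FPKM with cyclopamine (lower) and Krt15 at 3.61 FPKM with dorsomorphin and 20.6 FPKM with cyclopamine (lower), each with q = 0.00479 in the authors' deposited table. The fibroblast and dermal papilla genes summed to 27.3 FPKM with dorsomorphin and 16.2 FPKM with cyclopamine, with Lum listed at 0 in both. Vim made up most of that sum, with 21.9 FPKM with dorsomorphin and 14.0 FPKM with cyclopamine, and was not called (q = 0.319 in the authors' deposited table). The part of these markers in the Wnt4 difference was not tested.

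**Figure D4:**
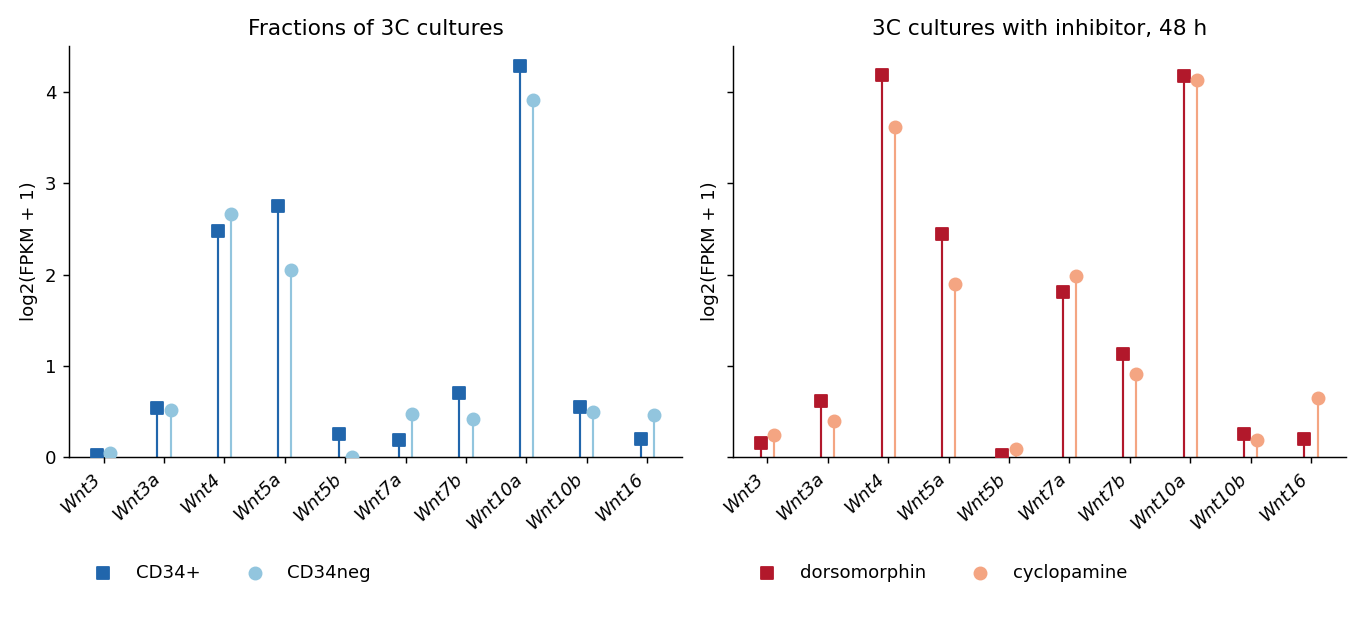
Points give log2(FPKM + 1) of each gene in the CD34+ and CD34neg fractions of 3C cultures (left) and in 3C cultures after 48 h with dorsomorphin or cyclopamine (right), 1 value per population and no error bars. Wnt10a, Wnt4 and Wnt5a stand above the rest in the fractions, joined by Wnt7a in the inhibitor cultures, and levels are not comparable between the panels.

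Of the genes that let a cell release Wnt proteins, Porcn, the lipid transferase Porcupine, stood at 149 FPKM in HFSC, 7.43 FPKM in CD34a6 and 2.56 FPKM in bulk. It was higher in CD34a6 than in bulk (log2 1.54, q = 0.00110), in HFSC than in bulk (log2 5.86, q = 0.000212) and in HFSC than in CD34a6 (log2 4.32, q = 0.000212) in the authors' deposited table. Porcn stood at 180 FPKM in CD34+ and 166 FPKM in CD34neg (q = 0.716), and at 147 FPKM with dorsomorphin and 102 FPKM with cyclopamine (log2 0.53, q = 0.0115, higher) in the authors' deposited tables. Wls, which encodes the carrier Wntless, stood at 129 FPKM in HFSC, 71.6 FPKM in CD34a6 and 76.5 FPKM in bulk. Wls was higher in HFSC than in bulk (q = 0.0283) and than in CD34a6 (q = 0.000212) in the authors' deposited table, and not called in the other 3 comparisons.

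Of 15 receptors and co-receptors tested, CD34a6 had 11 higher and 1 lower than bulk, HFSC had 5 higher and 4 lower than bulk, and HFSC had 2 higher and 11 lower than CD34a6. Over all loci tested, 22.0% were higher and 24.3% lower in CD34a6 against bulk, and 19.0% higher and 24.7% lower in HFSC against bulk. The shares were 25.2% and 29.0% in HFSC against CD34a6, 2.08% and 4.71% in CD34+ against CD34neg, and 1.26% and 1.31% in dorsomorphin against cyclopamine. The same shares stand beside the counts of the lists below. Ror2, a receptor for Wnt5a, stood at 1.70 FPKM in HFSC, 9.05 FPKM in CD34a6 and 0.228 FPKM in bulk, and all 3 differences were called (q = 0.000212 in the authors' deposited table). Fzd10, a Frizzled receptor, stood at 1.85 FPKM in HFSC, 1.95 FPKM in CD34a6 and 27.8 FPKM in bulk, the 1 receptor lower in CD34a6 than in bulk (q = 0.000212 in the authors' deposited table). In CD34+ against CD34neg, 3 of 10 receptors tested were higher and none lower: Fzd1, Fzd2 and Fzd7, with Fzd2 at 7.72 FPKM in CD34+ and 2.16 FPKM in CD34neg (q = 0.00275 in the authors' deposited table). None of 9 tested was called in dorsomorphin against cyclopamine.

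Secreted inhibitors include Sfrp1, which binds Wnt proteins outside the cell and stood at 2.73 FPKM in HFSC, 482 FPKM in CD34a6 and 17.4 FPKM in bulk (q = 0.000212 for each pair in the authors' deposited table). The 5 inhibitors tested were the secreted Sfrp1, Dkk3 and Wif1 and the membrane proteins Kremen1 and Kremen2. CD34a6 had 3 higher and 1 lower (Kremen2) than bulk. HFSC had 1 higher (Dkk3) and 3 lower (Sfrp1, Kremen1 and Kremen2) than bulk. HFSC had none higher and 4 lower than CD34a6, all but Kremen2. In the cultures, 2 of 4 were higher in CD34+ than in CD34neg, Sfrp1 and Dkk3, and 1 of 4 was lower with dorsomorphin than with cyclopamine. That gene was Sfrp1, with 6.44 FPKM with dorsomorphin and 9.82 FPKM with cyclopamine (q = 0.00859 in the authors' deposited table).

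Of the R-spondin axis, whose Lgr receptors enhance Wnt signals, CD34a6 had 5 of 7 tested genes higher and 1 lower than bulk, HFSC had none of 6 higher and 4 lower than bulk, and HFSC had all 6 lower than CD34a6. Lgr5 stood at 0.299 FPKM in HFSC, 70.5 FPKM in CD34a6 and 1.88 FPKM in bulk (q = 0.000212 for each pair in the authors' deposited table). Of the 7 genes of beta-catenin transcription, 6 were higher in CD34a6 than in bulk and 2 in HFSC than in bulk, 3 were lower in HFSC than in CD34a6, and 2 were higher in CD34+ than in CD34neg, Tcf7l1 and Tcf7l2. Of the feedback targets, which Wnt signalling itself raises in many tissues, CD34a6 had 4 of 8 tested genes higher and 2 lower than bulk, HFSC had none of 7 higher and 5 lower than bulk, and HFSC had none of 8 higher and 7 lower than CD34a6. Axin2, the most general of these targets, stood at 6.69 FPKM in HFSC, 16.0 FPKM in CD34a6 and 18.2 FPKM in bulk. It was lower in HFSC than in bulk (q = 0.00189) and than in CD34a6 (q = 0.000212), and not called in CD34a6 against bulk (q = 0.638), in the authors' deposited table. Lef1, Lgr5, Rnf43 and Znrf3 stand in more than 1 of these lists. None of the R-spondin or feedback genes tested was called in either culture comparison, nor any of beta-catenin transcription in dorsomorphin against cyclopamine.

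Of the 10 genes, Wnt4, Wnt5a and Wnt10a reached 1 FPKM in at least 1 population of every table. For these, the genes with the most alike pattern were sought among 9834 genes by the Euclidean distance over 4 differences in log2(FPKM + 1): CD34a6 minus bulk, HFSC minus bulk, CD34+ minus CD34neg and dorsomorphin minus cyclopamine, of which the first pair share the bulk libraries. Nearest to Wnt4 were Pard6b (distance 0.215), Ptgfrn (0.278) and Amotl2 (0.385). Nearest to Wnt5a were Vegfc (0.259), Tmem173 (0.289) and Uhmk1 (0.360), and nearest to Wnt10a were B4galnt1 (0.256), Slc25a48 (0.273) and Eno1 (0.357). Vegfc followed Wnt5a with differences of 0.06, 1.47, 0.72 and 0.58, where Wnt5a had -0.07, 1.25, 0.70 and 0.55. Of the 4 differences, only HFSC against bulk was called for Wnt5a. For Wnt10a neither culture difference was called, and for Wnt4 neither HFSC against bulk nor CD34+ against CD34neg. How near a nearest gene lies in general was not computed.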

How the data were processed

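The 3 deposited tables hold comparisons made by the authors, 1 line per locus and pair of populations, with the columns of Cuffdiff output per the file headers. FPKM values are the authors' estimates per population over its 3 libraries. The deposited log2 fold equals log2 of the line's second FPKM value over its first within 5.13e-05 and was turned here to be positive where the first-named population is higher. The p-value and q-value columns were deposited by the authors, the smallest p-value being 5e-05. Over the 3 pairs of the 3-population table the q-values were adjusted together. No value per library was analysed and read depth is unknown, so neither an SD nor a counting interval could be given. The p-values rest on 3 libraries per population, whose spread may be technical. Per the submitters' processing notes, the build was GRCm38. The notes name Cuffdiff, Cufflinks 2.2.1, StringTie 1.1.0 and HISAT 0.1.6 for the libraries of the 3-population table. They name TopHat2 2.0.13, DESeq2 1.8.1, cutadapt 1.5 and featureCounts (Subread 1.4.2) for the cultures, so which tool made the p-values of the culture tables is not settled.

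Repeated lines were counted once, and genes with several loci (Flg, of the suprabasal markers) were left out. The column named for 3C HFSCs in the fraction table was read as the CD34+ fraction, following the labels. Calls are deposited q-values under 0.05. Differences of a list use log2(FPKM + 1), which understates changes of low genes. The members and lists were chosen with earlier results of these data known. All Wnt genes and both secretion genes may be named, and of each other list at most the 4 called genes with the largest deposited fold per comparison. Fbxl14 was named beside these as it overlaps Wnt5b, and cell type markers were named to check the populations. Coding identity, in place of the planned protein identity, came from alignments of GENCODE vM21 coding sequence in Biopython 1.88, and tables were read with pandas 2.3.3. The scripts were tested on simulated data. Alternatives tried were q thresholds of 0.01 and 0.1, a minimum of 1 FPKM, a 2-fold minimum, adjustment within 1 comparison, pseudocounts of 0.1 and 0.01, and centring on the median of all loci.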

Additional observations from a re-analysis of the deposited data

How the results depend on the processing

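The calls of the 10 genes were repeated under 5 other settings. These reuse the deposited folds, so a direction could not turn and only a call could change. Of the 37 tested gene comparisons, a q under 0.01 dropped 3 calls, all in CD34a6 against bulk (Wnt5b, Wnt7a and Wnt10a), a minimum of 1 FPKM in the higher population dropped 1 (Wnt7a, same comparison) and a 2-fold minimum dropped 2, Wnt10a in CD34a6 against bulk (log2 -0.99) and Wnt4 in dorsomorphin against cyclopamine (log2 0.61). Under that minimum, 0 genes were called in dorsomorphin against cyclopamine, against 1 without it. A q under 0.1 and an adjustment within 1 comparison changed none of the 37. The median difference in CD34a6 against bulk was -1.21 with a pseudocount of 1 FPKM, -2.05 with 0.1 and -2.24 with 0.01.

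No paired analysis was possible because the tables hold 1 value per population, and the repeats without each replicate were not run for the same reason. With depth unknown, levels near 0, such as Wnt7a in CD34a6 and most members in the cultures, cannot be told from no expression.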

Other observations

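Several of the genes lie beside another Wnt gene, and the neighbours differed in level in some populations. Wnt6 and Wnt10a lie on the same strand of chromosome 1 with a gap of 6193 bp, and Wnt6 had 1.60 FPKM in HFSC and 8.20 FPKM in bulk where Wnt10a had 75.8 FPKM in HFSC and 24.0 FPKM in bulk. In the authors' deposited table, Wnt6 was lower and Wnt10a higher in HFSC than in bulk (q = 0.000212 for both). Wnt3a and Wnt9a lie on opposite strands with a gap of 16175 bp. In HFSC these neighbours were nearly level, with 3.70 FPKM for Wnt3a and 3.74 FPKM for Wnt9a. Both were higher in HFSC than in CD34a6 (q = 0.000212 for both in the authors' deposited table). In bulk, Wnt3a stood at 4.12 FPKM and Wnt9a at 0.11 FPKM. In the 3C fractions, Wnt9a stood at 1.5 FPKM in CD34+ and 1.55 FPKM in CD34neg, above Wnt3a with 0.449 FPKM in CD34+ and 0.432 FPKM in CD34neg. Wnt9b, 24328 bp from Wnt3, stayed at or below 0.0648 FPKM in HFSC, CD34a6 and bulk, and Wnt1, 11706 bp from Wnt10b, was listed at 0 in those 3 populations.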
